A study of Rattus norvegicus with 16 samples.

Results

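The 10 genes examined in embryonic rat kidney encode enzymes of glutathione synthesis and antioxidant defence, namely Gclc, Gclm, Gss, Gsr, Gpx1, Gpx3, Gpx7, Txnrd1, Nqo1 and Hmox1. They were chosen by name, as the probe sets that carry exactly 1 of these symbols. Each of the 10 genes had 1 probe set among the 21371 of the gene-level table, and together they had 94 of the 213067 probe sets of the exon-level table. Total RNA of whole male kidneys was hybridised to 8 rat gene arrays. Of these, 4 came from Munich Wistar Frömter rats (MWF), an inbred strain with inherited albuminuria, at E15.5, and 4 from spontaneously hypertensive rats (SHR) at E16.0. No treatment was applied. Embryonic day differs with strain, so strain and age cannot be told apart in any difference given here. Whether the 4 samples of a strain are separate animals is not said in the labels, and the p-values reflect only the variation among these 4, part of which may be technical. Both tables summarise the same 8 arrays and are not independent measurements.

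Glutathione is a small peptide of glutamate, cysteine and glycine that cells use to reduce peroxides and to trap reactive compounds. Glutamate-cysteine ligase, made of the catalytic subunit Gclc and the modifier subunit Gclm, carries out the rate-limiting step of its synthesis, and glutathione synthetase (Gss) adds glycine. Glutathione peroxidases spend glutathione on peroxides, and glutathione reductase (Gsr) restores it with NADPH. In many tissues the transcription factor NRF2 raises Gclc, Gclm, Nqo1, Hmox1 and Txnrd1 by binding the antioxidant response element upstream of these genes.

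Promoter windows from RefSeq (build GRCr8) are shown for both subunits of glutamate-cysteine ligase, since Gclm carried the only call among the 10 genes. Txnrd1 is also shown, as the other gene with a match to the motif searched, in 1 of its 2 windows. Windows ran from 250 bases before to 50 bases after the annotated start and were searched on both strands for TGACNNNGC, the core of the antioxidant response element. Capitals mark a match, which in both cases lies on the opposite strand. All sequences read 5′ to 3′ on the gene's own strand, and they come from the reference strain, not from MWF or SHR.
Gclm promoter, chr2:213031885-213032184 (+): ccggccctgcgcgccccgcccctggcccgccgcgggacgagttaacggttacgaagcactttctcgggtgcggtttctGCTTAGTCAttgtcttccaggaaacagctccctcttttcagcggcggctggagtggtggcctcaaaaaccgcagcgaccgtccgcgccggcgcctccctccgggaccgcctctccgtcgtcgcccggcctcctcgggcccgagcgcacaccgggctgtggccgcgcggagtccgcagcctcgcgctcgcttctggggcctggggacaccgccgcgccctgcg
Gclc promoter, chr8:87510226-87510525 (+): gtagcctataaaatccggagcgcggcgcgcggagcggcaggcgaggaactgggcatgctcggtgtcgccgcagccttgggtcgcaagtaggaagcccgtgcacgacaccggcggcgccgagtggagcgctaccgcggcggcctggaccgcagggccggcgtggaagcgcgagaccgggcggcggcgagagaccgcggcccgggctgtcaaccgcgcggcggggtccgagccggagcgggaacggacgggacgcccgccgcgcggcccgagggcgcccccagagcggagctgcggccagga
Txnrd1 promoter, chr7:22755855-22756154 (-): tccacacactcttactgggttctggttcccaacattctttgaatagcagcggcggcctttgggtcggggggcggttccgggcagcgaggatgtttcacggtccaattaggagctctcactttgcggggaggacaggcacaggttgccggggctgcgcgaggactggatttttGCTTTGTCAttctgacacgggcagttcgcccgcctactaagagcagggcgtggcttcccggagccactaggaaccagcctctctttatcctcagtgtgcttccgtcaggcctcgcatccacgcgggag
The match in the Gclm window read TGACTAAGC on its own strand. As printed on the gene's strand, its first base lay at position -172, counted from the start. The match in Txnrd1 read TGACAAAGC on its own strand and, as printed, had its first base at position -78, in 1 of the 2 windows of that gene. Windows were found for 8 of the 10 genes (Gsr and Hmox1 had none), and 2 of the 9 windows of these 8 genes held a match. Over all 33469 windows, 12.1% held one. A match describes these letters only and is not a measured binding site. Bases outside the windows were not searched, so a window without a match does not show that the gene lacks the element.

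Gclm was the only 1 of the 10 genes whose level differed between the strains by limma's test over all probe sets (Benjamini-Hochberg adjusted p under 0.05), and it was higher in MWF. Among all 21371 gene-level probe sets 6.58% were called, 3.18% higher and 3.4% lower in MWF, so 1 of 10 is near the background. No gene of the 10 had strains that did not overlap, against 14.4% of all probe sets. An unadjusted p under 0.05 was reached by 2 of the 10, Gclm and Gpx3, against 22.4% of all probe sets. Of the 10 differences 4 lay above 0 (against 56.3% of all probe sets) and 6 below, with a median of -0.0064 on the log2 scale, beside 0.023 for all gene-level probe sets.

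**Figure D1:**
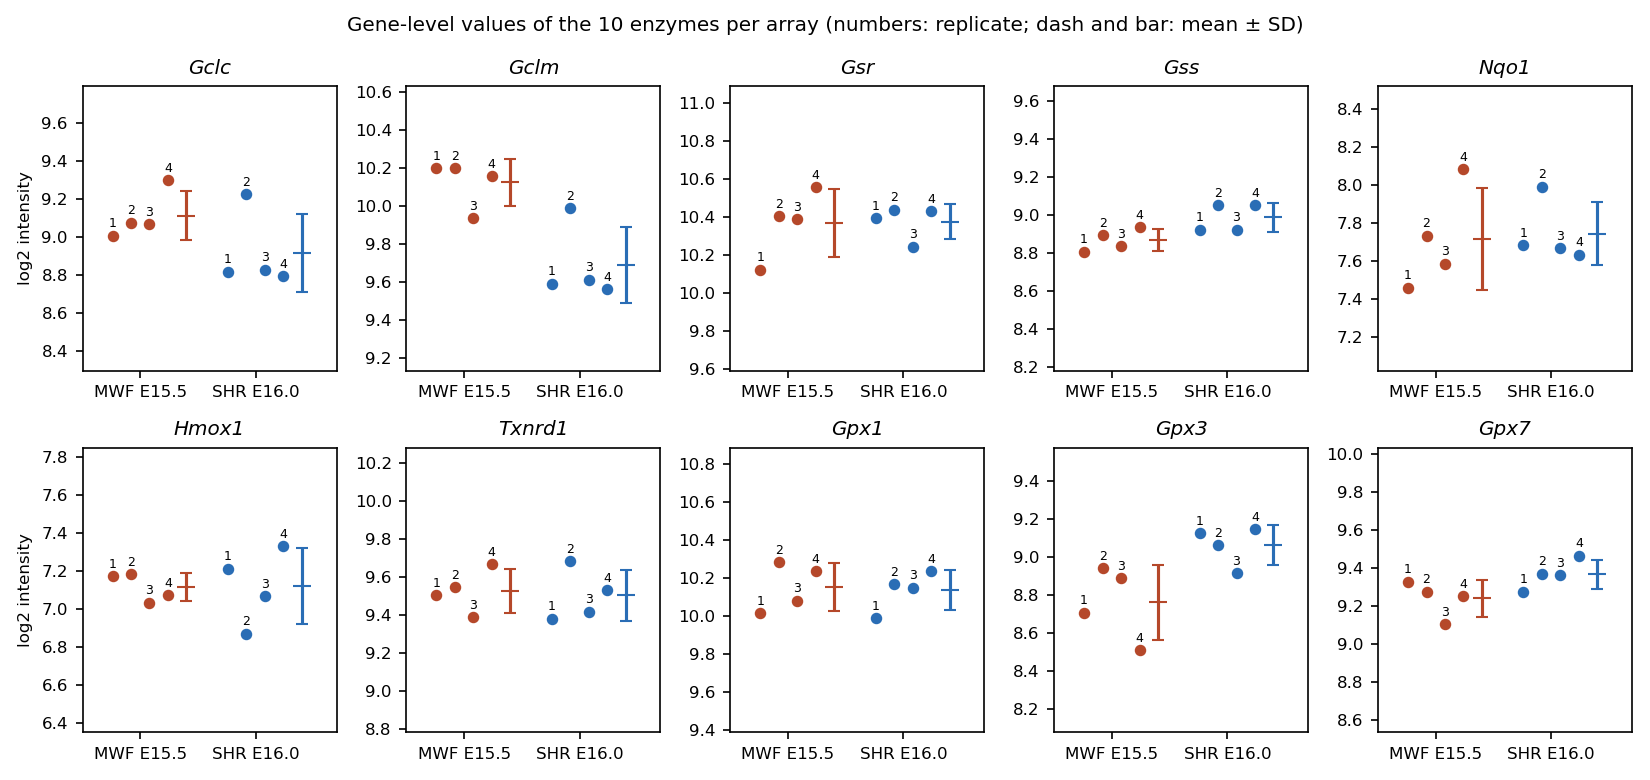
Gene-level log2 intensity (y axis) of the 10 enzymes in 4 MWF arrays (red, E15.5) and 4 SHR arrays (blue, E16.0), with replicate numbers and, beside each strain, the mean ± SD. Every panel spans 1.5 log2 units. The strains overlap in each panel, and SHR replicate 2 is the highest SHR array for Gclc, Gclm, Gsr, Gss, Nqo1 and Txnrd1.

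SHR replicate 2 stood apart from the other SHR arrays, and MWF replicate 1 from the other MWF arrays. The mean log2 level of the sympathoadrenal genes Th, Dbh, Chga and Chgb, which make catecholamines and their secretory granules, was 10.78, 10.99 and 11.16 in SHR replicates 1, 3 and 4 but 6.03 in SHR replicate 2. Among MWF arrays, replicate 1 had 8.14 and the other 3 had 6.14 to 6.30. All 13 measured red cell markers lay higher in MWF, with array means of 9.48 to 10.54 in MWF and 8.68 to 9.19 in SHR. Of 8 macrophage markers 6 lay lower in MWF, with means of 7.23 to 7.55 in MWF and 7.53 to 8.14 in SHR. All 13 liver markers lay higher in MWF, with overlapping means (6.75 to 8.99 against 6.42 to 8.94). The means of 5 adrenal cortex markers were 6.50 to 6.72 in MWF and 6.41 to 6.56 in SHR. Kidney identity was checked on 7 measured markers, 6 of them higher in MWF and 0 called by limma (3 with an unadjusted p under 0.05), with means of 8.98 to 9.18 in MWF and 8.81 to 8.99 in SHR. Ret, the ureteric bud receptor, and the nephron progenitor gene Cited1 had the smallest p of the 7, at 0.35 and 0.33 higher in MWF (limma adjusted p = 0.124 and 0.129). Pax2, a factor of both lineages, was at 0.34 (adjusted p = 0.131), and Wt1, a factor of progenitors and podocytes, at 0.03 (adjusted p = 0.819). In whole kidneys, fewer cells of a type and less RNA per cell cannot be told apart.

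Gclm, the modifier subunit that raises the affinity and activity of the ligase, had gene-level log2 intensities of 10.20, 10.20, 9.94 and 10.16 in MWF replicates 1 to 4 and 9.59, 9.99, 9.61 and 9.56 in SHR replicates 1 to 4. The values of SHR replicates 1, 3 and 4 lay below all MWF arrays, while SHR replicate 2 lay above MWF replicate 3. The mean was 10.13 ± 0.13 in MWF and 9.69 ± 0.20 in SHR (SD, n = 4), a difference of 0.44 ± 0.11 (SE) on the log2 scale or 1.35-fold (limma adjusted p = 0.0451). The 95% confidence interval of the difference ran from 0.19 to 0.68. SHR replicate 2 had the lowest sympathoadrenal mean of all arrays and the highest Gclm of its strain. MWF replicate 1 had the highest sympathoadrenal mean of its strain and Gclm as high as MWF replicate 2. MWF replicate 3, lowest in Gclm, had the lowest red cell, liver and macrophage means of its strain (9.48, 6.75 and 7.23). SHR replicate 2 had the highest red cell mean of its strain (9.19) and the lowest macrophage mean (7.53). The liver mean of SHR was highest in replicate 1 (8.94). The part of other cell types in the difference was not tested, and the covariate fits that follow do not measure it. With the sympathoadrenal mean as a covariate the Gclm difference was 0.24 (limma adjusted p = 0.337). With the red cell, liver and macrophage means in turn it was 0.10, 0.39 and 0.24, and it did not pass (adjusted p = 0.906, 0.0908 and 0.65). Red cell means did not overlap between the strains and macrophage means overlapped only slightly, so both covariates largely follow strain. With them the calls over all probe sets went from 1407 to 73 and 169. The sympathoadrenal mean, highest in SHR replicates 1, 3 and 4, also follows strain in part, and with it the calls were 517. A call lost with the sympathoadrenal, red cell or macrophage covariate, here or in the genes below, cannot tell other cell types and strain apart. Leaving out SHR replicate 2, the highest SHR array for Gclm, was bound to raise the Gclm difference, which was then 0.54 (limma adjusted p = 0.00385). The Gclm call was lost without any 1 of MWF replicates 1, 2 and 4 and SHR replicates 1, 3 and 4, at differences of 0.39 to 0.42.

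Exon-level values of Gclm lay in the same direction along its 7 probe sets. All 7 were above 0, from 0.09 to 0.78 on the log2 scale, with a median of 0.41. Of the 7, 6 reached an unadjusted p under 0.05 and 0 passed over the whole exon-level table by limma, where 1.93% of probe sets were called. The largest difference was at probe set 4, with 11.09, 10.70, 10.65 and 10.96 in MWF and 9.64, 10.63, 10.03 and 9.99 in SHR (log2, replicates 1 to 4). All its MWF values lay above all its SHR values, by the narrowest margin at SHR replicate 2, and its difference was 0.78 ± 0.20 (SE; limma adjusted p = 0.115). Leaving out SHR replicate 2, its highest SHR array, was bound to raise this difference. The same probe set then differed by 0.96 ± 0.15 and passed (limma adjusted p = 0.0169). Exon-level calls over the whole table were 4112 with all arrays and 2405 to 6210 with 1 array left out. Probe set 1 showed the smallest difference, at 0.09 ± 0.11 (adjusted p = 0.799). No Gclm probe set was called in the test of exon usage, which sets it against the rest of its gene. Probe set 1 was at -0.40 ± 0.11 in that test (limma adjusted p = 0.175, the lowest) and probe set 4 at 0.40 ± 0.16 (adjusted p = 0.406). A strain variant under a probe cannot be told apart from exon usage. The median of the 7 probe sets per array differed by 0.36 ± 0.11 (limma adjusted p = 0.0916), in a fit that called 4.96% of 16582 genes.

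**Figure D2:**
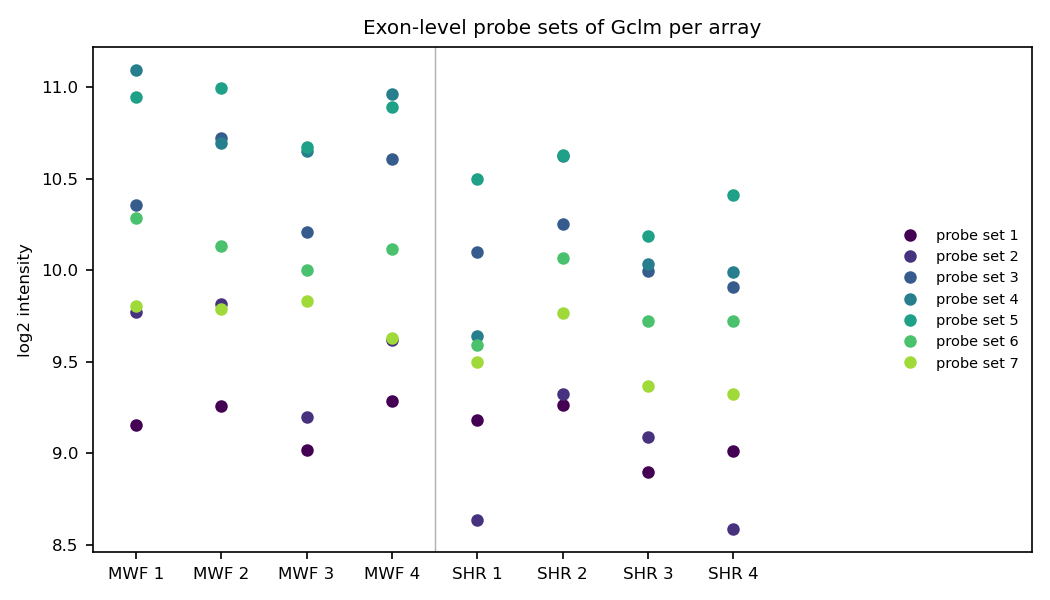
Log2 intensity (y axis) of the 7 exon-level probe sets of Gclm in each array (x axis, strain and replicate). Probe sets 4 and 5 do not overlap between the strains, and SHR replicate 2 is the highest SHR array for all 7 probe sets.

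By root mean square distance over the 8 arrays, after centring each probe set on its mean, the gene-level probe sets most like Gclm among 12940 with another symbol were those of Oxnad1 (0.0822 log2 units), Ccdc65 (0.0866) and Ndufaf3 (0.0884). Their strain differences were 0.35, 0.32 and 0.35.

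Gclc, the catalytic subunit, shared the low SHR replicates 1, 3 and 4 with Gclm, but its difference was smaller and did not pass. The order of the MWF arrays was not the same. Its log2 values were 9.01, 9.08, 9.07 and 9.30 in MWF replicates 1 to 4 and 8.82, 9.22, 8.83 and 8.79 in SHR replicates 1 to 4. SHR replicates 1, 3 and 4 lay below all MWF arrays, and SHR replicate 2 lay above MWF replicates 1, 2 and 3. The difference was 0.20 ± 0.11 (SE; limma adjusted p = 0.332), with a 95% interval of -0.05 to 0.44. Leaving out SHR replicate 2, the highest SHR array for Gclc, was bound to raise the difference. It was then 0.30 and passed (limma adjusted p = 0.0486), and with the sympathoadrenal covariate it was -0.05 (adjusted p = 0.837). At the exon level 15 of 17 Gclc probe sets were above 0, ranging from -0.02 to 0.40 around a median of 0.16, and 0 were called by limma (2 with an unadjusted p under 0.05). Both Gclc and Gclm thus passed when SHR replicate 2 was left out, in a fit that called 2279 gene-level probe sets against 1407 with all arrays. SHR replicate 2 was the only SHR array with a low sympathoadrenal mean, so without it strain and that mean cannot be told apart.

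**Figure D3:**
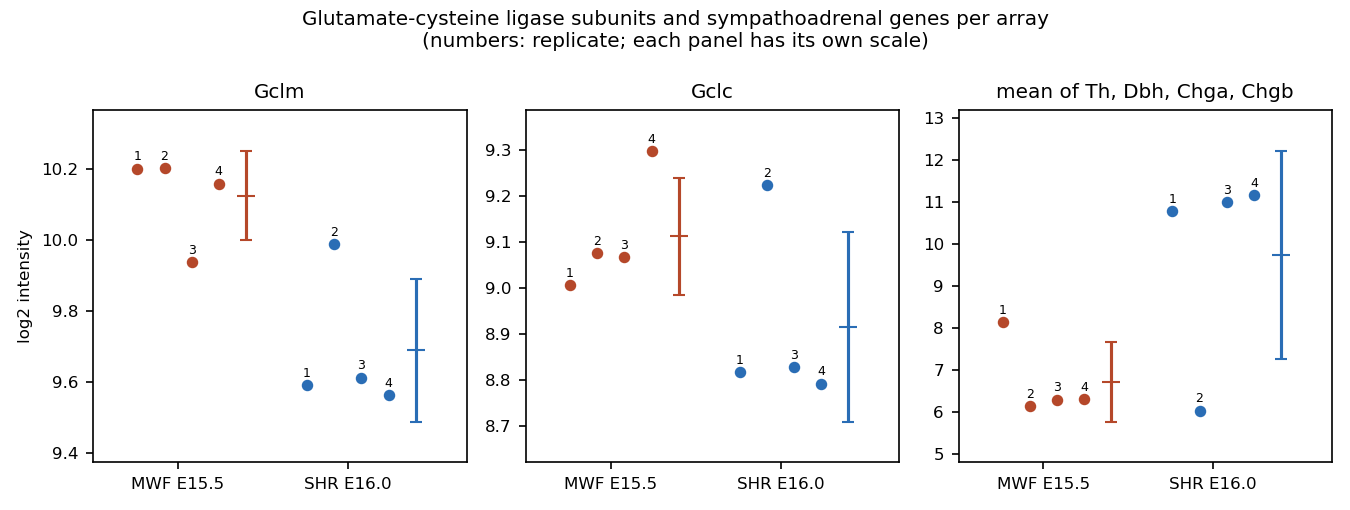
Gene-level log2 intensity (y axis, a scale of its own in each panel) of Gclm, Gclc and the mean of 4 sympathoadrenal genes in 4 MWF (red) and 4 SHR (blue) arrays, with replicate numbers and mean ± SD. SHR replicates 1, 3 and 4 are low for both ligase subunits and between 10.78 and 11.16 for the sympathoadrenal mean, where SHR replicate 2 is at 6.03.

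Gss and Gsr, which complete and recycle glutathione, did not pass. Gss was 8.80, 8.89, 8.83 and 8.94 in MWF and 8.92, 9.05, 8.92 and 9.05 in SHR (log2, replicates 1 to 4). Only MWF replicate 4 reached the SHR range. The difference was -0.12 ± 0.06 (SE; limma adjusted p = 0.297; 95% interval -0.26 to 0.02), and 10 of its 12 exon-level probe sets lay below 0. Gsr was 10.12, 10.40, 10.39 and 10.56 in MWF and 10.39, 10.44, 10.25 and 10.43 in SHR, with MWF replicate 1 lowest and MWF replicate 4 highest of all arrays. Its difference was -0.0083 ± 0.09 (adjusted p = 0.972; 95% interval -0.22 to 0.21), and 6 of 13 exon-level probe sets lay above 0.

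The glutathione peroxidases Gpx3 and Gpx7 had lower means in MWF without passing, and the Gpx1 difference was close to 0. Gpx3, the secreted peroxidase that adult kidney makes in its proximal tubules, was 8.71, 8.94, 8.89 and 8.51 in MWF and 9.13, 9.06, 8.91 and 9.15 in SHR (log2, replicates 1 to 4). Only SHR replicate 3 overlapped the MWF arrays, lying below MWF replicate 2. The difference was -0.30 ± 0.10 (SE; limma adjusted p = 0.119), with a 95% interval of -0.53 to -0.07. It lay between -0.36 and -0.22 with any 1 array left out, without passing. Of 7 exon-level probe sets 6 lay below 0, from -0.57 upward, and 2 did not overlap between the strains. Of 7 proximal tubule markers 3 lay above 0 and 4 below, 0 were called by limma and 2 had an unadjusted p under 0.05. Their array means were 6.92 to 7.21 in MWF and 7.05 to 7.18 in SHR, and their part in the Gpx3 difference was not tested.

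Gpx7, a peroxidase of the endoplasmic reticulum that lacks selenocysteine, was 9.33, 9.27, 9.10 and 9.25 in MWF and 9.27, 9.37, 9.36 and 9.46 in SHR (log2, replicates 1 to 4). MWF replicate 1 lay above SHR replicate 1 and below the other SHR arrays. The difference was -0.13 ± 0.07 (SE; limma adjusted p = 0.319; 95% interval -0.28 to 0.03), and 3 of 4 exon-level probe sets lay below 0. Gpx1, the abundant cytosolic selenoenzyme, was 10.02, 10.28, 10.08 and 10.23 in MWF and 9.99, 10.17, 10.15 and 10.24 in SHR. Its difference was 0.02 ± 0.08 (adjusted p = 0.926), with a 95% interval of -0.17 to 0.20, and its 2 exon-level probe sets were at -0.05 and 0.09. Gpx1 is abundant in red cells, whose measured markers were all higher in MWF as given above, and their part in the Gpx1 values was not tested.

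Txnrd1, Nqo1 and Hmox1, which share the NRF2 response with the ligase subunits in other settings, had differences close to 0. Txnrd1, the cytosolic reductase of thioredoxin, was 9.50, 9.54, 9.39 and 9.66 in MWF and 9.38, 9.68, 9.42 and 9.53 in SHR (log2, replicates 1 to 4). Its difference was 0.02 ± 0.09 (SE; limma adjusted p = 0.906; 95% interval -0.17 to 0.22), with 9 of 19 exon-level probe sets above 0. Nqo1, a quinone reductase, was 7.46, 7.73, 7.59 and 8.08 in MWF and 7.68, 7.99, 7.67 and 7.63 in SHR. MWF replicate 4 and SHR replicate 2 were the highest arrays of their strains, and the MWF values spanned the whole SHR range. Its difference was -0.03 ± 0.14 (adjusted p = 0.929; 95% interval -0.34 to 0.28), the widest interval of the 10 genes. Hmox1, which breaks down heme, was 7.17, 7.18, 7.03 and 7.07 in MWF and 7.21, 6.87, 7.07 and 7.33 in SHR. The SHR arrays held both the lowest and the highest value, at replicates 2 and 4. Its difference was -0.0046 ± 0.10 (adjusted p = 0.985; 95% interval -0.23 to 0.22), and 3 of 6 exon-level probe sets were above 0. Hmox1 and Nqo1 were the only members of the 10 with a mean below the median of all probe sets (8.17), and that of Hmox1 lay near the lower quartile (7.05).

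Across the 94 exon-level probe sets of the 10 genes, 48 lay above 0, against 52.5% of all exon-level probe sets, and 46 below. None was called by limma, and 12 had an unadjusted p under 0.05, against 13.7% of all exon-level probe sets. The strains did not overlap at 6 of the 94, against 8.83% in all. In the test of exon usage, which sets each probe set against the mean of the others of its gene, 0 of 92 were called by limma and 8 had an unadjusted p under 0.05, against 1.09% called and 10.8% with such a p among 169253 probe sets. Gpx1 had too few probe sets for that test.

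**Figure D4:**
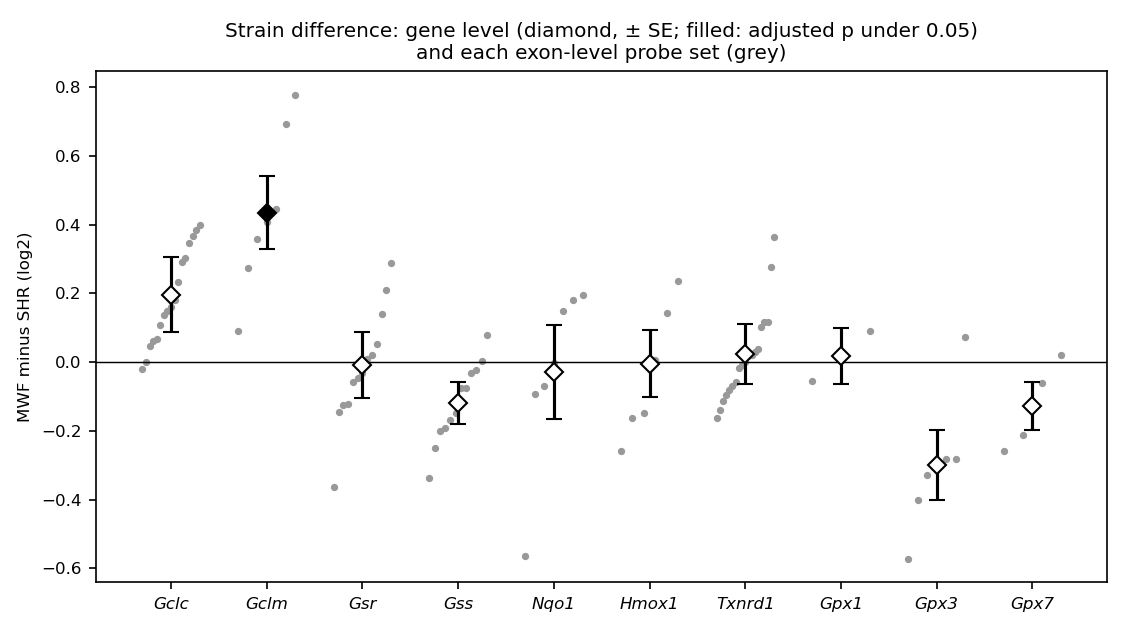
Difference MWF minus SHR on the log2 scale (y axis) for the 10 enzymes (x axis). Diamonds give the gene level ± SE, filled where the limma adjusted p was under 0.05, and grey points give each of the 94 exon-level probe sets. Only the diamond of Gclm is filled, at 0.44.

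Other genes of the same chemistry were counted from 6 lists, 83 genes in all, of which 73 were measured. Of these 73, 7 passed, 2 higher and 5 lower in MWF, which is 9.59% against 6.58% of all gene-level probe sets. The median difference of the 73 was -0.02, and that of all probe sets with 1 symbol was 0.0065. The strains did not overlap in 10 of the 73, against 14.4% of all.

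Among 25 measured glutathione enzymes outside the 10, 1 rose and 1 fell. Gpx2, the peroxidase of epithelia and in other tissues an NRF2 target, was 7.85, 7.94, 7.74 and 8.14 in MWF and 6.47, 7.28, 6.87 and 6.93 in SHR (log2, replicates 1 to 4). All MWF arrays lay above all SHR arrays, and the difference of 1.03 ± 0.16 (SE), or 2.04-fold, passed (limma adjusted p = 0.00547). It passed with each array left out in turn, at 0.89 to 1.16, and on exon-level medians (0.76, adjusted p = 0.00139). It did not pass with the sympathoadrenal covariate (0.75, adjusted p = 0.0658), the red cell covariate (0.92, adjusted p = 0.407) or the macrophage covariate (0.85, adjusted p = 0.265). Gsto1, an omega-class transferase, fell by 0.31 on the log2 scale (adjusted p = 0.0236), without overlap of the strains. Its call was lost without any 1 of MWF replicates 1, 2 and 4 and SHR replicates 1 and 4, and on exon-level medians (-0.15, adjusted p = 0.364). It was also lost without both MWF replicate 1 and SHR replicate 2 (adjusted p = 0.056) and with the red cell, liver and macrophage covariates (adjusted p = 0.475, 0.0522 and 0.0859). Glo1, the glyoxalase that uses glutathione to clear methylglyoxal, and the alpha-class transferase gene Gsta1 were at 0.27 ± 0.10 and 0.38 ± 0.14 without passing (adjusted p = 0.128 and 0.16).

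Of 14 measured genes of the thioredoxin and peroxiredoxin system 2 fell, and the 6 peroxiredoxin genes Prdx1 to Prdx6 were not called. Txnrd2, the mitochondrial counterpart of Txnrd1, was 7.49, 7.52, 7.37 and 7.55 in MWF and 7.89, 7.93, 7.67 and 7.85 in SHR (log2, replicates 1 to 4). The strains did not overlap, and the difference was -0.35 ± 0.07 (SE; limma adjusted p = 0.0249), beside 0.02 ± 0.09 for Txnrd1. Msrb2, a mitochondrial methionine sulfoxide reductase, was at -0.30 ± 0.08 (adjusted p = 0.0481). The call of Txnrd2 was lost without any 1 of MWF replicates 1, 2 and 3 and SHR replicates 1 and 4, and without both MWF replicate 1 and SHR replicate 2 (adjusted p = 0.06). With the sympathoadrenal, red cell and macrophage covariates it was at -0.42, -0.56 and -0.42 and did not pass (adjusted p = 0.0711, 0.199 and 0.254). That of Msrb2 was kept without SHR replicate 2 and lost on leaving out each of the other 7 arrays, and on exon-level medians (-0.18, adjusted p = 0.466). It was also lost with quantile normalization (adjusted p = 0.0632), with arrays shifted to one median (adjusted p = 0.0628) and without both MWF replicate 1 and SHR replicate 2 (adjusted p = 0.0955). With the sympathoadrenal, red cell, liver and macrophage covariates Msrb2 was at -0.28, -0.04, -0.25 and -0.26 and did not pass (adjusted p = 0.227, 0.95, 0.073 and 0.511). Msra, of the other class of methionine sulfoxide reductases, and Txnip, the thioredoxin inhibitor, were at 0.26 ± 0.09 and 0.27 ± 0.12 without passing (adjusted p = 0.111 and 0.209). Msra passed with array weights (limma adjusted p = 0.0313), in a fit that called 2397 gene-level probe sets. It also passed without both MWF replicate 1 and SHR replicate 2 (adjusted p = 0.0114), in a fit that called 2180. These were its lowest MWF and its highest SHR array, so leaving them out was bound to raise the Msra difference. Txnip passed without SHR replicate 4 (adjusted p = 0.0441), its highest SHR array, and leaving that array out was likewise bound to raise its difference.

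In the cysteine and NADPH supply list 1 of 13 measured genes rose. Cth, the enzyme that makes cysteine from cystathionine, was 8.09, 8.05, 7.93 and 7.95 in MWF and 7.57, 7.73, 7.30 and 7.39 in SHR (log2, replicates 1 to 4). All MWF arrays lay above all SHR arrays, with a difference of 0.51 ± 0.10 (SE; limma adjusted p = 0.0161). The call was lost without MWF replicate 2 (0.50, adjusted p = 0.0512), without SHR replicate 4 (0.47, adjusted p = 0.0516) and on exon-level medians (0.57, adjusted p = 0.0501). It was also lost with the sympathoadrenal (0.36, adjusted p = 0.156), red cell (0.20, adjusted p = 0.776) and macrophage covariates (0.30, adjusted p = 0.482). Slc7a11, the cystine importer, lay in the opposite direction at -0.31 ± 0.12 without passing (adjusted p = 0.162), and the glutathione conjugate exporter gene Abcc1 was at 0.13 ± 0.08 (adjusted p = 0.395).

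Of 7 genes that share heme and iron handling with Hmox1, 2 fell and 6 lay below 0. Slc40a1, the iron exporter ferroportin, was 11.08, 11.22, 11.25 and 11.20 in MWF and 11.72, 11.86, 11.81 and 11.79 in SHR (log2, replicates 1 to 4). The difference was -0.61 ± 0.06 (SE; limma adjusted p = 0.000616), with the strains well apart. It passed with each array left out in turn, at -0.63 to -0.57, and not with the red cell covariate (-0.55, adjusted p = 0.197). Hmox2, the constitutive heme oxygenase, was 9.91, 9.92, 9.95 and 10.03 in MWF and 10.29, 10.47, 10.13 and 10.25 in SHR. Its difference was -0.33 ± 0.08 (adjusted p = 0.0369), and the call was lost without any 1 of the 4 MWF arrays and of SHR replicates 1 and 4. It was also lost without both MWF replicate 1 and SHR replicate 2 (-0.26, adjusted p = 0.072) and with the red cell and liver covariates (adjusted p = 0.475 and 0.0632). Por, which passes electrons to heme oxygenases, and the biliverdin reductase gene Blvra were at -0.15 ± 0.06 and -0.18 ± 0.14 without passing (adjusted p = 0.178 and 0.506). Macrophages, which carry much ferroportin, had 6 of 8 markers lower in MWF (3 called), and their part in these differences was not tested. With the macrophage covariate, which largely follows strain and does not measure that part, Slc40a1 and Hmox2 were at -0.70 and -0.52 (limma adjusted p = 0.0207 and 0.101).

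The superoxide dismutase and catalase list had 0 of 5 genes called by limma and 0 with an unadjusted p under 0.05. All 5 lay below 0, between -0.14 and -0.02, led by Ccs (-0.14 ± 0.07), the copper chaperone of Sod1, and the mitochondrial Sod2 (-0.13 ± 0.09; adjusted p = 0.282 and 0.481). Of 9 regulators of NRF2, 0 were called by limma and 1, Sqstm1, had an unadjusted p under 0.05. Sqstm1, an autophagy receptor that binds KEAP1, was at -0.19 ± 0.08 and Nfe2l2, the gene of NRF2 itself, at 0.11 ± 0.06 (adjusted p = 0.186 and 0.34).

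**Figure D5:**
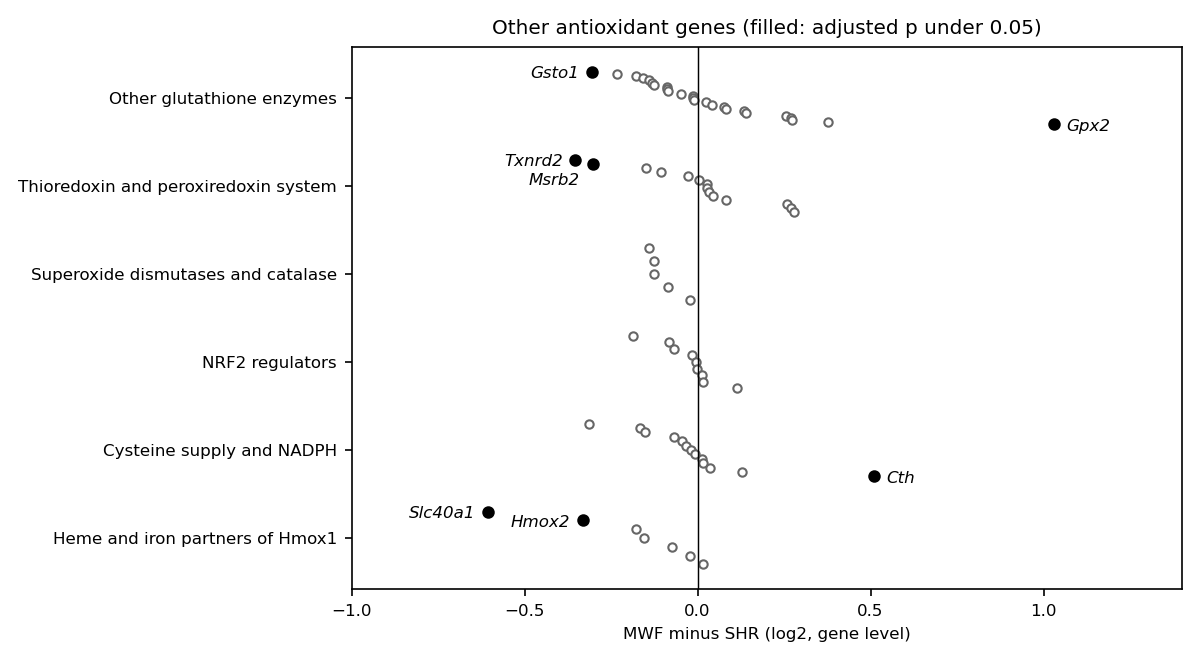
Gene-level difference MWF minus SHR on the log2 scale (x axis) for 73 measured genes of 6 lists (y axis), 1 point per gene, filled and named where the limma adjusted p was under 0.05. Gpx2 and Cth lie to the right, and Gsto1, Txnrd2, Msrb2, Slc40a1 and Hmox2 to the left.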

How the data were processed

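The values were log2 intensities that the authors deposited, 1 per gene-level and 1 per exon-level probe set and array. Array medians were 8.17 to 8.21 and 7.93 to 7.99. Per the submitters' processing notes Partek was used. Its version, the way probes were summarised and normalised, and the build were not given in the sources used here. Arrays give no read depth, and their number limits the precision. No arrays held identical values. The platform annotation, with its symbols brought up to date through RefSeq (GRCr8), gave 1 symbol to 12941 of 21371 gene-level probe sets.

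Each table was fitted whole with limma 3.58.1 in R 4.3.3 (lmFit, eBayes, strain only) and adjusted by Benjamini-Hochberg over all its probe sets. Exon usage was tested in genes with at least 3 probe sets. Genes with several gene-level probe sets entered a list by the brightest. Named are the 10 enzymes and, from each list, all called genes and up to 2 others with the smallest p. The members, lists and tests were chosen with earlier results of these data known. Scripts were tested on simulated data. Alternatives covered normalization, dim probe sets, variance model, array weights, the block, left-out arrays, covariates and exon-level medians.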

Additional observations from a re-analysis of the deposited data

Results flagged for a closer look

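A single array lay far from the other 3 of its strain, by Dixon's 95% criterion for 4 samples, at 4 of 20 checks of the 10 enzymes by strain. About 1 in 20 such groups is flagged by chance. SHR replicate 2 was high for 3 genes: Gclm at 9.99 (other SHR arrays 9.56 to 9.61), Gclc at 9.22 (8.79 to 8.83) and Nqo1 at 7.99 (7.63 to 7.68). MWF replicate 3 was low for Gclm, at 9.94 against 10.16 to 10.20 in the other MWF arrays.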

How the results depend on the processing

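Named are only results that changed. The 1407 gene-level calls became 872 without the probe sets below the table median, 2397 with array weights, 2180 without both MWF replicate 1 and SHR replicate 2, 822 with exon-level medians and 517, 73 and 169 with the sympathoadrenal, red cell and macrophage covariates, and lay between 775 and 2279 with 1 array left out. The macrophage covariate, and all counts over the 7 other antioxidant calls, were added after the data were seen. The 1 call among the 10 enzymes became 2 without both arrays, 0 with each of the 4 covariates and with exon-level medians, and 0 to 2 with 1 array left out. The 7 calls among other antioxidant genes became 4 without dim probe sets, with the liver covariate and with exon-level medians, 3, 0 and 1 with the sympathoadrenal, red cell and macrophage covariates, and 2 to 7 with 1 array left out. Deviations from the strain means correlated at 0.284, 0.151, 0.098 and 0.156 between arrays of the same number, and at -0.333 to 0.252 between arrays of different numbers. Of these 4, 1 lay under 0.1, and MWF replicate 4 and SHR replicates 2 and 3 correlated best with another number, so the numbers were not taken as pairs. With the replicate number as a block the calls among other antioxidant genes were 6, beside 1312 calls in all and 1 among the 10 enzymes (Gclm, adjusted p = 0.0432); Gsto1 (adjusted p = 0.0514) and Hmox2 (adjusted p = 0.0676) were lost and Gsta1 was gained (adjusted p = 0.0311). The block moved the 4112 exon-level calls to 2172 and the 1842 exon usage calls to 916; with 1 array left out they were 2405 to 6210 and 1205 to 1754. Of the 94 exon-level probe sets of the 10 enzymes, 1 passed without both arrays and 0 to 1 with 1 array left out. The cause of these changes was not tested.

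Values near 0 changed sign. Gsr was at 0.0012 with quantile normalization, 0.030 with array weights, 0.094 without both arrays and 0.032 and 0.0024 with the red cell and liver covariates. Nqo1 was at 0.012 with array weights and 0.14 without both arrays. Hmox1 was at 0.0018 with arrays shifted to one median, 0.19 and 0.29 with the sympathoadrenal and macrophage covariates and 0.16 with exon-level medians. Txnrd1 was at -0.11 with the sympathoadrenal covariate, -0.11 with the red cell covariate, -0.059 with the macrophage covariate and -0.032 with exon-level medians. Gpx1 was at -0.037 and -0.016 with the sympathoadrenal and red cell covariates, and Gclc at -0.050 and -0.10 with the sympathoadrenal and macrophage covariates. Exon-level medians put Gss at 0.0031 and Sod2 at 0.021. Without both arrays Sod2 was at 0.0048, and with 1 array left out it lay between -0.18 and -0.054. Gsta1 was at -0.30 with the red cell covariate and Nfe2l2 at -0.026 with the macrophage covariate. With 1 array or both left out, Gsr lay between -0.071 and 0.094, Nqo1 between -0.15 and 0.14, Hmox1 between -0.11 and 0.065, Txnrd1 between -0.023 and 0.092 and Gpx1 between -0.031 and 0.075.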
